A study of Homo sapiens with 9 samples.

Results

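Cells store neutral lipid in droplets that are wrapped in a single phospholipid layer and a coat of proteins. Perilipins sit on that coat and limit the access of lipases, CIDE proteins bring droplets together and pass lipid from the smaller to the larger, and patatin-like lipases such as PNPLA2 release fatty acids from the stored triglyceride. In liver, the same proteins set how much fat a hepatocyte keeps and how much it burns or exports.

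The genes of this machinery followed here were 8 of the 30818 named in the deposited array table: the CIDE genes CIDEA, CIDEB and CIDEC, the perilipins PLIN2 and PLIN3, the lipases PNPLA2 and PNPLA3, and the PNPLA2 inhibitor G0S2. They were chosen by symbol and are read by 13 of 43906 named probes. Of these, 12 probes of 7 genes carry the present symbol, and the PLIN3 probe is listed under the older symbol M6PRBP1, which the RefSeq annotation gives as a synonym. A probe was kept when its signal lay above the negative controls (detection p under 0.05) on at least 3 of the 9 arrays. This left 10 probes of 7 of the genes, and G0S2 was not kept.

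The RNA came from tumours of Hep3B, a human hepatocellular carcinoma line, which had grown for about 5 weeks in the livers of Nod/Scid mice, hosts without working T and B cells that keep myeloid cells. MRX34 is a liposome that carries a mimic of the microRNA miR-34a. Each mouse had 1 intravenous injection, and tumours were taken 24 hours later: 3 arrays followed MRX34, 3 followed liposomes with no microRNA and 3 followed the dilution buffer. The labels do not say whether each array is a separate animal, so that each p-value speaks of the spread among these arrays, which may be technical. In whole tumours, fewer cells of a type and less RNA per cell cannot be told apart.

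Mean background-subtracted intensity per array ran from 323 to 512 after MRX34, from 163 to 491 after empty liposomes and from 249 to 616 after dilution buffer, and the dimmest array was empty liposomes 1. The Hep3B markers AFP and GPC3 averaged 15.31 and 12.92 log2 units after MRX34, 15.24 and 12.97 after empty liposomes, and 15.37 and 12.74 after dilution buffer. Transcripts of the hepatocyte enzymes GNMT and OTC, whose mean served as a liver level, differed far more between arrays. That level was 11.0, 10.05 and 7.73 log2 units on the MRX34 arrays, 13.57, 11.95 and 10.80 on the empty liposome arrays, and 8.21, 10.06 and 14.32 on the dilution buffer arrays. Whether these probes, named by human genes, read Hep3B or mouse liver RNA was not tested. No gene was called in any of the 4 contrasts, at 0% of 15387 genes with an adjusted p under 0.05 (limma, Benjamini-Hochberg over all genes).

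The delivered strand, as RefSeq lists the human mature microRNA (GRCh38.p14, chr1:9151735-9151756, minus strand), is shown because it is the agent that separates MRX34 from empty liposomes. Its 22 bases have the seed, bases 2 to 8, in capitals.
hsa-miR-34a-5p: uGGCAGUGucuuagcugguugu

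CIDEC has 2 start regions in the RefSeq promoter table, and both are shown since CIDEC is the gene whose MRX34 arrays stood apart from every control array. The PLIN2 region is shown beside them as that of a coat protein with close values in all groups. Each run is the 250 bases before a start, 5′ to 3′ on the minus strand of GRCh38.p14, and capitals mark matches to the motifs searched on both strands.
CIDEC, chr3:9880254-9880503: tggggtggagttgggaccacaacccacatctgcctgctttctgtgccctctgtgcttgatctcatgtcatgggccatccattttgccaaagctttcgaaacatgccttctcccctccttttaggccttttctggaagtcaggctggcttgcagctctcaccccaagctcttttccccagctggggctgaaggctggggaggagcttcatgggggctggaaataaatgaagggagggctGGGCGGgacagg
CIDEC, chr3:9878813-9879062: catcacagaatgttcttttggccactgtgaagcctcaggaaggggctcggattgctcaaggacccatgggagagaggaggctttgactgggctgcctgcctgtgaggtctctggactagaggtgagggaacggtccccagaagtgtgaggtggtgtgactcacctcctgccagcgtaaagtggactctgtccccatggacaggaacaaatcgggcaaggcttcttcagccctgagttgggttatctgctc
PLIN2, chr9:19127493-19127742: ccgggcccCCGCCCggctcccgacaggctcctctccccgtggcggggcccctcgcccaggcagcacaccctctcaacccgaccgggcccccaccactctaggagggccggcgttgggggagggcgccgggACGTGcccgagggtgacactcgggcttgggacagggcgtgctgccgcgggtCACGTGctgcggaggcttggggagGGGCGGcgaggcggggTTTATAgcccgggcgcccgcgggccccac

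The motifs were the nuclear receptor half-site AGGTCA, its direct repeats DR1 and DR4, the E-box CACGTG, the HIF core ACGTG, the GC box GGGCGG, the CCAAT box CCAAT and the TATA box TATAAA. The upstream CIDEC run held 1 GC box, which begins 12 bases before the start, and the other CIDEC run held none of the 8 motifs. The PLIN2 run held 2 GC boxes, 1 E-box, and 3 matches to the HIF core, of which 2 lie within the E-box. Its match to the TATA box begins 29 bases before the start and reads TTTATA, so that TATAAA lies on the opposite strand. Among 35116 promoters, 42.6% held a GC box, 10.7% a TATA box, 6.34% the E-box and 18.5% the HIF core. The half-site occurred in 12.1% of promoters and, among the 9 promoters of 7 of the genes in the table, in that of PNPLA2. A match is a description of letters and not of a bound site.

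CIDEC, which promotes the fusion of droplets and the growth of large ones, was higher after MRX34 than after either control article. Its brighter probe read 766, 527 and 999 intensity units on the MRX34 arrays, against 124, 292 and 268 on the empty liposome arrays and 434, 307 and 254 on the dilution buffer arrays. After background correction these were 9.44, 8.83 and 9.86 log2 units for MRX34, 5.75, 7.79 and 7.62 for empty liposomes, and 8.50, 7.88 and 7.52 for dilution buffer. All 3 MRX34 arrays lay above all 6 control arrays, and the lowest value, on empty liposomes 1, was not above background.

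The MRX34 mean for CIDEC was 9.38 ± 0.516 log2 units (SD, n = 3), against 7.51 ± 0.928 over the 6 controls. The difference was 1.87 (SE 0.452, 95% interval 0.86 to 2.88), which is 3.65-fold, and CIDEC ranked 108 of 15387 genes by p. It was not called, with an adjusted p of 0.302 by limma and an unadjusted p of 0.00217. Against empty liposomes the difference was 2.33 (SE 0.522, 5.01-fold, limma adjusted p 0.319), and against dilution buffer it was 1.41 (SE 0.522, 2.66-fold, limma adjusted p 0.451).

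Empty liposomes 1 set part of the size of these values. Without that array the difference was 1.54 against both controls and 1.67 against empty liposomes. Between empty liposomes and dilution buffer, CIDEC differed by -0.91 (SE 0.522, limma adjusted p 0.766) with the array, and by -0.26 without it. CIDEC was highest on MRX34 3, the array with the lowest liver level, and lowest on empty liposomes 1, which had the second highest. Over the 9 arrays, Pearson's r of CIDEC was -0.725 with the liver level and 0.647 with array brightness. With the liver level as a covariate, the CIDEC difference from both controls was 1.43, and with array brightness as a covariate it was 1.60, neither called.

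The other CIDEC probe did not show this separation. It read 132, 99.5 and 151 intensity units on the MRX34 arrays, against 142, 122 and 97.5 on the empty liposome arrays and 143, 110 and 94.3 on the dilution buffer arrays. The groups overlapped, the probe was above background on 6 of 9 arrays, and its difference from both controls was 0.21 log2 units (SE 0.375). The files do not give probe sequences, so which CIDEC transcripts each probe reads was not tested, nor was any signal from CIDECP1, the CIDEC pseudogene in RefSeq.

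**Figure D1:**
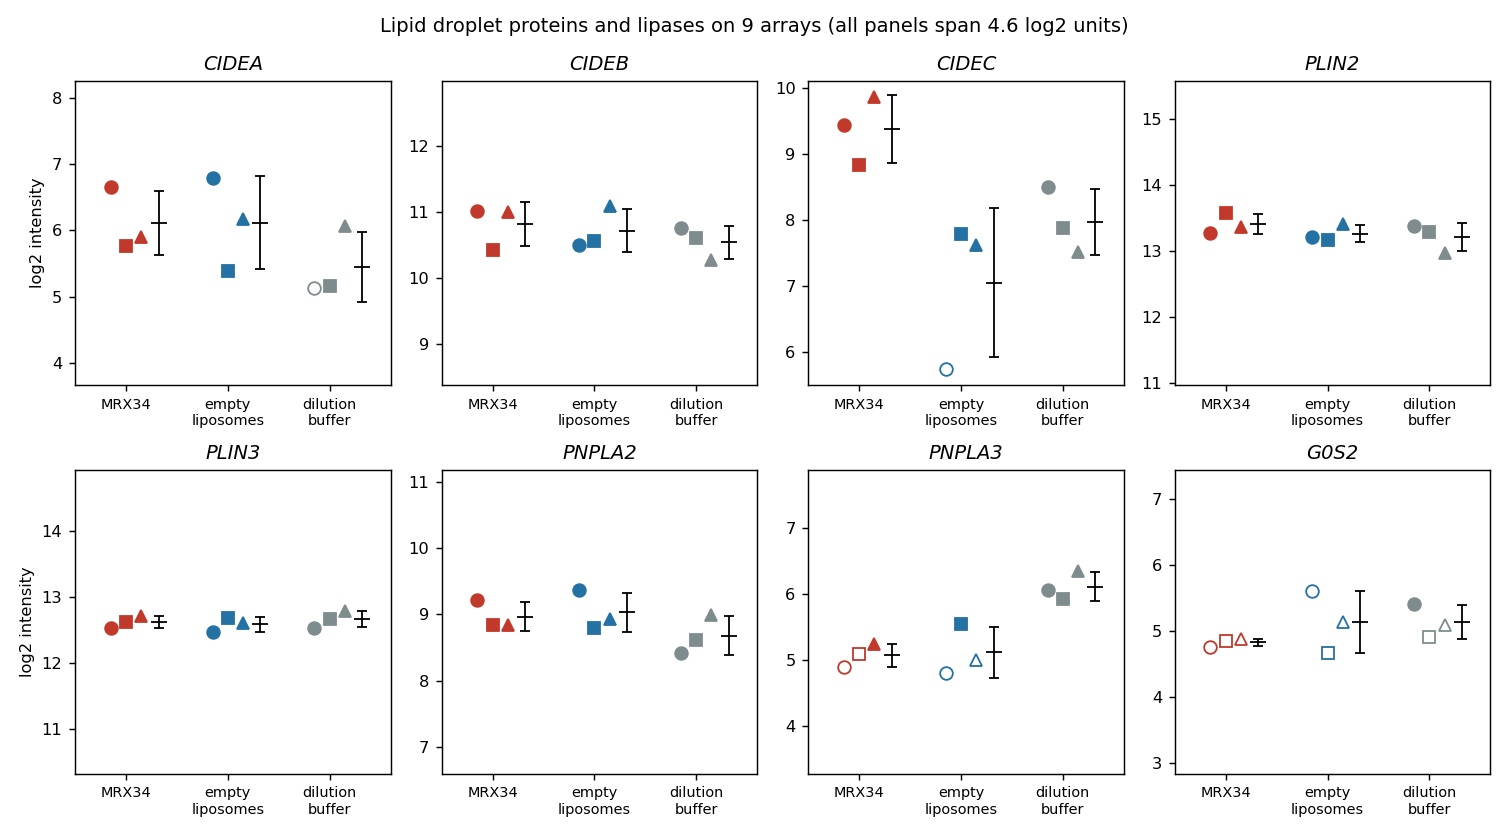
Log2 intensity of each gene's probe on the 9 arrays, with MRX34 left of empty liposomes and dilution buffer; circles, squares and triangles are replicates 1, 2 and 3, hollow symbols were not above background, and the bar is the mean with its SD (n = 3). CIDEC on the 3 MRX34 arrays sits between 8.83 and 9.86, above all 6 control arrays, and PNPLA3 on the dilution buffer arrays sits above the other 6.

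The profiles most like that of CIDEC, by Pearson's r of log2 level over the 9 arrays, belonged to LGALS2 (r = 0.978), the lectin galectin-2, and to NR1H3 (r = 0.977), which encodes the oxysterol receptor LXR alpha. LGALS2 measured 8.46, 8.19 and 8.49 log2 units on the MRX34 arrays, against 5.44, 7.11 and 6.87 on the empty liposome arrays and 7.73, 6.92 and 6.43 on the dilution buffer arrays. As with CIDEC, empty liposomes 1 was lowest and not above background, and the MRX34 arrays did not overlap the controls. LGALS2 was higher by 1.63 (SE 0.389, limma adjusted p 0.297) in MRX34 tumours than in both controls.

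NR1H3 moved over a narrower range. It measured 11.37, 11.25 and 11.36 log2 units on the MRX34 arrays, against 10.59, 11.07 and 11.0 on the empty liposome arrays and 11.13, 10.92 and 10.97 on the dilution buffer arrays. Its MRX34 arrays also lay above all 6 controls, by 0.38 on average (SE 0.170, limma adjusted p 0.447). These correlations were picked as the highest among all genes tested and share the low value of 1 array, so they describe the profiles alone.

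**Figure D2:**
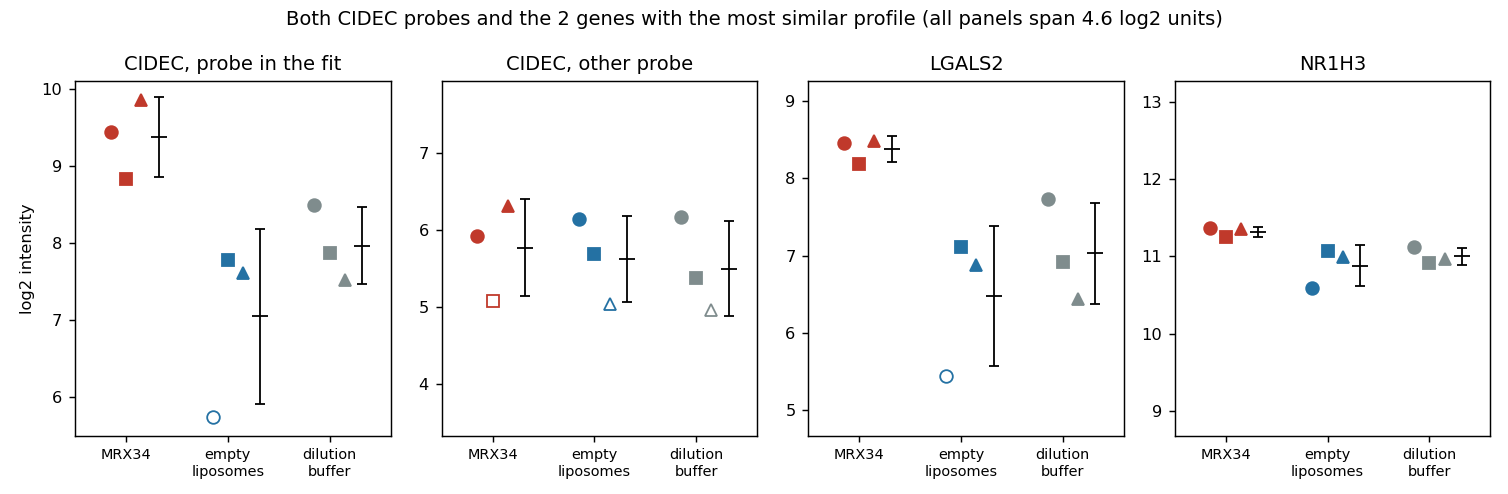
Log2 intensity of both CIDEC probes, LGALS2 and NR1H3 on the 9 arrays, with groups, symbols and error bars as in the plot of all genes by array. The first CIDEC probe, LGALS2 and NR1H3 are highest on the 3 MRX34 arrays and lowest on empty liposomes 1, while the other CIDEC probe overlaps between all groups.

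CIDEB, the CIDE protein of hepatocytes that also serves the lipidation of very-low-density lipoprotein, gave similar values in all groups. It read 2139, 1452 and 2114 intensity units on the MRX34 arrays, against 1516, 1583 and 2253 on the empty liposome arrays and 1794, 1623 and 1306 on the dilution buffer arrays. Each group held values inside the range of the others. The difference of MRX34 from both controls was 0.19 log2 units (95% interval -0.31 to 0.68, limma adjusted p 0.766). RefSeq places CIDEB over part of NOP9 and LTB4R2, and whether the probe also reads those genes was not tested.

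CIDEA, best known from brown fat, was dim. Of its 4 probes, 2 were above background on no array and 1 on 4 arrays. The probe used, above background on 8 arrays, read 173, 125 and 130 intensity units on the MRX34 arrays, against 182, 111 and 143 on the empty liposome arrays and 101, 102 and 138 on the dilution buffer arrays. MRX34 1 and empty liposomes 1 were the highest, and all groups overlapped. The difference was 0.33 log2 units from both controls (SE 0.352; 0.048 without MRX34 1 and 0.50 without MRX34 2), -0.01 from empty liposomes (SE 0.406) and 0.66 from dilution buffer (SE 0.406, limma adjusted p 0.586). Empty liposomes differed from dilution buffer by 0.67 (SE 0.406, limma adjusted p 0.773). The weaker probe gave -0.26 for MRX34 against both controls (SE 0.356), the opposite sign, with an interval that spans 0 for either probe.

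PLIN2, the perilipin that coats droplets in most cells and is the usual marker of stored fat in hepatocytes, kept close values on all 9 arrays. It read 10003, 12230 and 10640 intensity units on the MRX34 arrays, against 9552, 9224 and 10908 on the empty liposome arrays and 10661, 10081 and 8104 on the dilution buffer arrays. MRX34 2 was the highest array and dilution buffer 3 the lowest, with overlap between the groups. The difference from both controls was 0.17 log2 units (SE 0.170, 95% interval -0.21 to 0.55, limma adjusted p 0.714), which leaves room for a fold between 0.865 and 1.46. The other PLIN2 probe gave 0.14 (SE 0.177).

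PLIN3, a perilipin that moves from the cytosol to new droplets, varied least among the probes used for these genes. It read 5995, 6416 and 6798 intensity units on the MRX34 arrays, against 5751, 6688 and 6306 on the empty liposome arrays and 6030, 6613 and 7142 on the dilution buffer arrays. The 3 ranges lay over one another. MRX34 differed from both controls by -0.0025 log2 units (SE 0.155, 95% interval -0.35 to 0.34), and the widest difference between any pair of groups was -0.08, for empty liposomes against dilution buffer.

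PNPLA2 encodes adipose triglyceride lipase, which takes the first fatty acid off stored triglyceride. Its probe read 666, 530.3 and 529.5 intensity units on the MRX34 arrays, against 731, 514 and 561 on the empty liposome arrays and 412, 464 and 582 on the dilution buffer arrays. Empty liposomes 1 and MRX34 1 were the highest, as for CIDEA, and the groups overlapped. Pearson's r of PNPLA2 with array brightness was -0.771, and the part of brightness in this order was not tested. The difference of MRX34 was 0.11 log2 units from both controls (SE 0.208, limma adjusted p 0.859), -0.06 from empty liposomes (SE 0.240) and 0.29 from dilution buffer (SE 0.240, limma adjusted p 0.682). Empty liposomes differed from dilution buffer by 0.35 (SE 0.240, limma adjusted p 0.788).

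G0S2, the small protein that binds PNPLA2 and blocks it, was above background on 1 of 9 arrays, dilution buffer 1. It read 84.5, 88.7 and 90.4 intensity units on the MRX34 arrays, against 119, 78.6 and 101 on the empty liposome arrays and 112, 91.8 and 99.7 on the dilution buffer arrays. These values carry no usable order, and no fold is given.

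PNPLA3, a patatin-like lipase of hepatocytes that also remodels droplet lipid, was measured near background. Its signal was above background on 1 of 3 MRX34 arrays, 1 of 3 empty liposome arrays and 3 of 3 dilution buffer arrays, so that it passed the filter only through the dilution buffer group. Its probe read 90.9, 99.6 and 105 intensity units on the MRX34 arrays, against 86.9, 116 and 95.7 on the empty liposome arrays and 137, 132 and 153 on the dilution buffer arrays. On the log2 scale these were 4.89, 5.09 and 5.23 for MRX34, 4.81, 5.54 and 4.99 for empty liposomes, and 6.05, 5.93 and 6.35 for dilution buffer. The 3 dilution buffer values lay above the other 6, of which 4 were not above background and carry no usable order.

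The size of the PNPLA3 difference therefore depended on how background was handled, and it is given as a description. MRX34 differed from dilution buffer by -1.04 log2 units (SE 0.240, limma adjusted p 0.399) with background correction and by -0.51 without it. Empty liposomes differed from dilution buffer by -0.99 (SE 0.240, limma adjusted p 0.766) with the correction and by -0.50 without it. These contrasts share the dilution buffer arrays and are not independent of each other. MRX34 differed from empty liposomes by -0.04 (SE 0.240, limma adjusted p 0.951), and both of those groups lay mostly at background. A filter that asked for a detection p under 0.01 left the gene out.

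**Figure D3:**
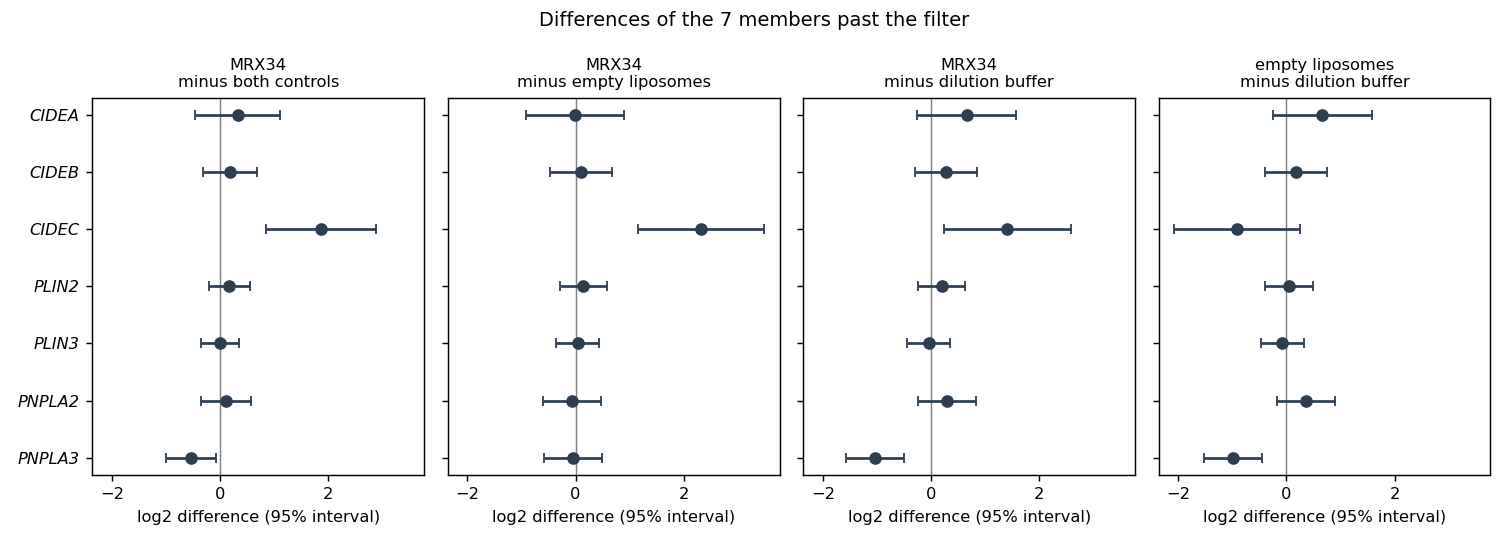
Log2 difference of the 7 genes past the filter in the 4 contrasts, with 95% intervals from the fit on 9 arrays. CIDEC lies to the right in the 3 MRX34 contrasts (1.87, 2.33 and 1.41), PNPLA3, which was near background outside dilution buffer, lies to the left in both contrasts with it (-1.04 and -0.99), and the intervals of the other 5 genes span 0.

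Counted over the genes past the filter, MRX34 against both controls gave 5 higher and 2 lower with a median of 0.17 log2 units, beside 55% of all genes above 0 and a median of 0.04. An unadjusted p under 0.05 was reached by 2 of the 7, CIDEC and PNPLA3, against 11.1% of all genes. CIDEC was the 1 gene whose MRX34 and control arrays did not overlap, which held for 6.96% of all genes. Against empty liposomes, 4 were higher and 3 lower with a median of 0.04, beside 55% of all genes above 0. CIDEC alone reached an unadjusted p under 0.05, as did 9.35% of all genes, and was alone in its lack of overlap, found in 14.4%.

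Against dilution buffer, 5 were higher and 2 lower in MRX34 with a median of 0.27, beside 54.1% of all genes above 0. CIDEC and PNPLA3 had an unadjusted p under 0.05, as did 10.1% of all genes, and both did not overlap, as did 21.3%. In empty liposomes against dilution buffer, 4 were higher and 3 lower with a median of 0.05, beside 46.9% of all genes above 0. An unadjusted p under 0.05, found in 5.76% of all genes, and a lack of overlap, found in 11.7%, were each seen for 1 gene, PNPLA3. Since PNPLA3 passed the filter only through dilution buffer, its place in these counts is no result. The counts rest on 1 or 2 of 7 genes and are given as a description. The all-gene medians of the 4 contrasts were 0.04, 0.05, 0.04 and -0.03. Over the alternatives that tested all 7 genes in MRX34 against both controls, 5 or 6 were higher and 1 or 2 lower.

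Genes that make the stored lipid were measured beside those that hold it. Of 22 genes for triglyceride and steryl ester synthesis, 18 were tested in MRX34 against both controls, with 11 higher, 7 lower, a median difference of 0.11 and none called. ACSL5, which activates long-chain fatty acids, was higher by 1.24 (SE 0.444, limma adjusted p 0.395) and its MRX34 arrays did not overlap the controls. SOAT2, which esterifies cholesterol in hepatocytes, differed by 0.66 (SE 0.304, limma adjusted p 0.451). The acyltransferase AGPAT1 differed by -0.37 and the phosphatidate phosphatase LPIN2 by -0.34, both with overlap. For LPIN2, MRX34 differed from empty liposomes by -0.01 (SE 0.194), and empty liposomes differed from dilution buffer by -0.65 (SE 0.194).

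Among 19 other coat and droplet-forming proteins, 16 were tested, with 14 higher, 2 lower, a median of 0.16 and none called. FITM1, which partitions new triglyceride into droplets, was higher by 0.88 (SE 0.282, limma adjusted p 0.374) with some overlap. HSD17B11, a dehydrogenase found on droplets, was higher by 0.62 (SE 0.200, limma adjusted p 0.374) without overlap. On the lower side, AUP1, which recruits ubiquitin-conjugating enzymes to droplets, differed by -0.43 and PLIN4 by -0.29. For AUP1, MRX34 differed from empty liposomes by -0.11 (SE 0.220), and empty liposomes differed from dilution buffer by -0.63 (SE 0.220).

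Of 20 other lipases and lipase cofactors, 14 were tested, with 11 higher, 3 lower, a median of 0.31 and none called. AADAC, a hydrolase of the hepatocyte endoplasmic reticulum, was higher by 0.69 (SE 0.267, limma adjusted p 0.414). DDHD2, a phospholipase that can also act on triglyceride, differed by 0.49 (SE 0.194, limma adjusted p 0.418). PNPLA6, a lysophospholipase, differed by -0.63 (SE 0.333), and LIPE, hormone-sensitive lipase, which was above background on only 3 of 9 arrays, by -0.13 (SE 0.193).

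All 16 transcription factors of lipid storage were tested, with 8 higher, 8 lower, a median of 0.03 and none called. SREBF1, which drives fatty acid synthesis, was higher by 0.46 (SE 0.177, limma adjusted p 0.414) without overlap. CEBPB, a factor of stress responses and fat cell differentiation, was lower by 1.13 (SE 0.492, limma adjusted p 0.445). It measured 10.83 ± 0.35 log2 units after MRX34, against 12.22 ± 0.54 after empty liposomes and 11.71 ± 1.32 after dilution buffer (SD, n = 3 each). NR1H2, which encodes LXR beta, was lower by 1.03 (SE 0.502, limma adjusted p 0.471) with a wide MRX34 spread of 1.40 (SD, n = 3).

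**Figure D4:**
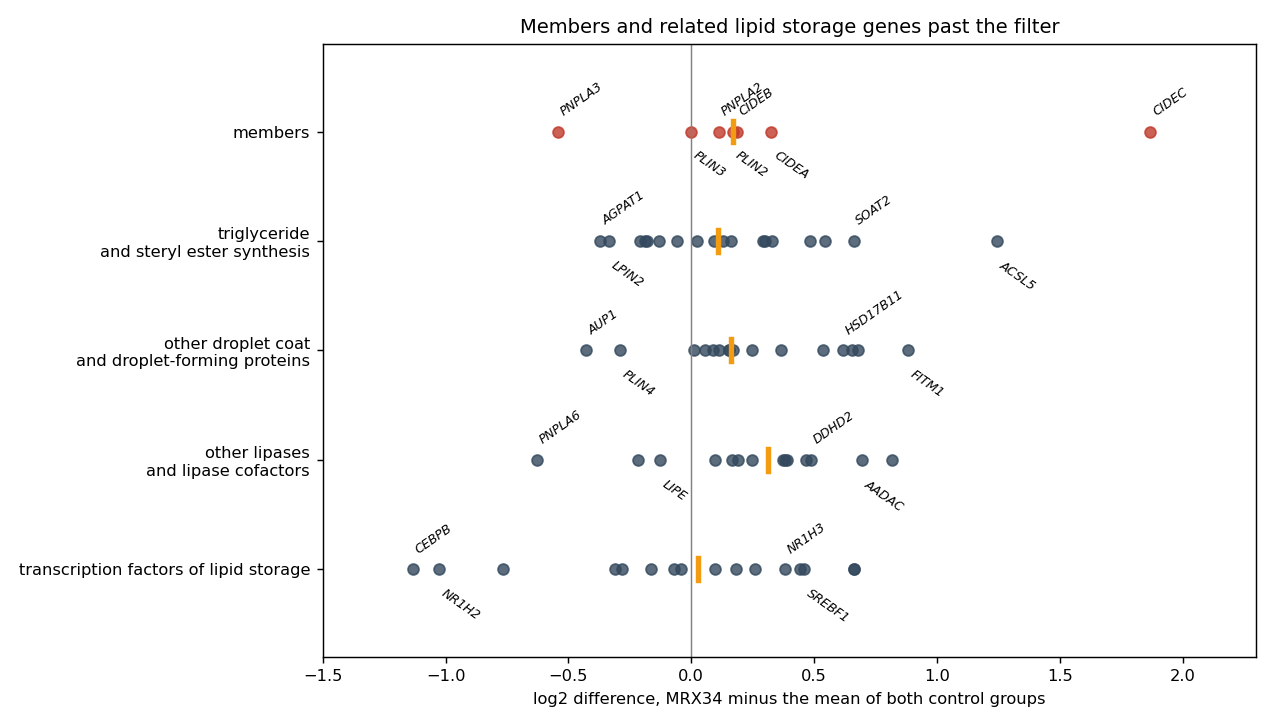
Log2 difference of MRX34 from the mean of both control groups for the 7 genes past the filter and for the 4 lists of related genes, each point a gene and each orange bar the median of its row. CIDEC at 1.87 lies farthest to the right, ACSL5 at 1.24 is next, and CEBPB at -1.13 lies farthest to the left.

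Markers of other cells were read on the same arrays, since fat cells and macrophages also hold droplets. The probes are named by human genes while the host cells are mouse, so how far they read host cells was not tested. A marker without signal therefore does not show that such host cells were absent, and signal from Hep3B itself was not told apart. Of 9 adipocyte markers, ADIPOQ, FABP4 and LPL were above background on 0 of 9 arrays, UCP1 on 1, PCK1 on 2, PLIN1 on 7, CIDEA on 8, and LEP and CFD on 9. Their summed level ran from 10.24 to 10.38 log2 units after MRX34, 10.17 to 10.39 after empty liposomes and 10.04 to 10.20 after dilution buffer. Of the 4 tested, 3 were higher and 1 lower in MRX34 than in both controls, with none called. CIDEA is itself a gene followed here and PLIN1 is also in the list of coat proteins, so this count is not a separate reading. PLIN1, the main perilipin of fat cells, differed by 0.54 (SE 0.242, limma adjusted p 0.447) without overlap, CIDEA by 0.33, CFD by 0.20 and LEP by -0.13, the last 3 with overlap. The PLIN1 probe was dim, with means of 5.98 log2 units after MRX34, 5.40 after empty liposomes and 5.49 after dilution buffer. The part of fat cells in the CIDEC difference was not tested.

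Of 8 macrophage markers, CLEC4F was above background on 0 arrays, and CD163 and MARCO on 1 each. The dim VSIG4 and CSF1R probes were above background on 5 and 6 arrays, and CD68, CD14 and LYZ on 9. The summed level ran from 11.59 to 11.83 log2 units after MRX34, 11.32 to 11.61 after empty liposomes and 11.08 to 11.35 after dilution buffer, and most of that sum is CD68. Of the 5 tested, 3 were higher and 2 lower in MRX34 than in both controls, and 2 were higher and 3 lower than in empty liposomes, with none called. Against dilution buffer all 5 were higher, both in MRX34 (median 0.39) and in empty liposomes (median 0.43), again with none called. CD68, a lysosomal protein of macrophages, differed from both controls by 0.42 (SE 0.177, limma adjusted p 0.434) without overlap. The others overlapped, with LYZ at 0.40, VSIG4 at 0.18, CSF1R at -0.02 and CD14 at -0.03. The part of macrophages in the CIDEC difference was not tested.

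**Figure D5:**
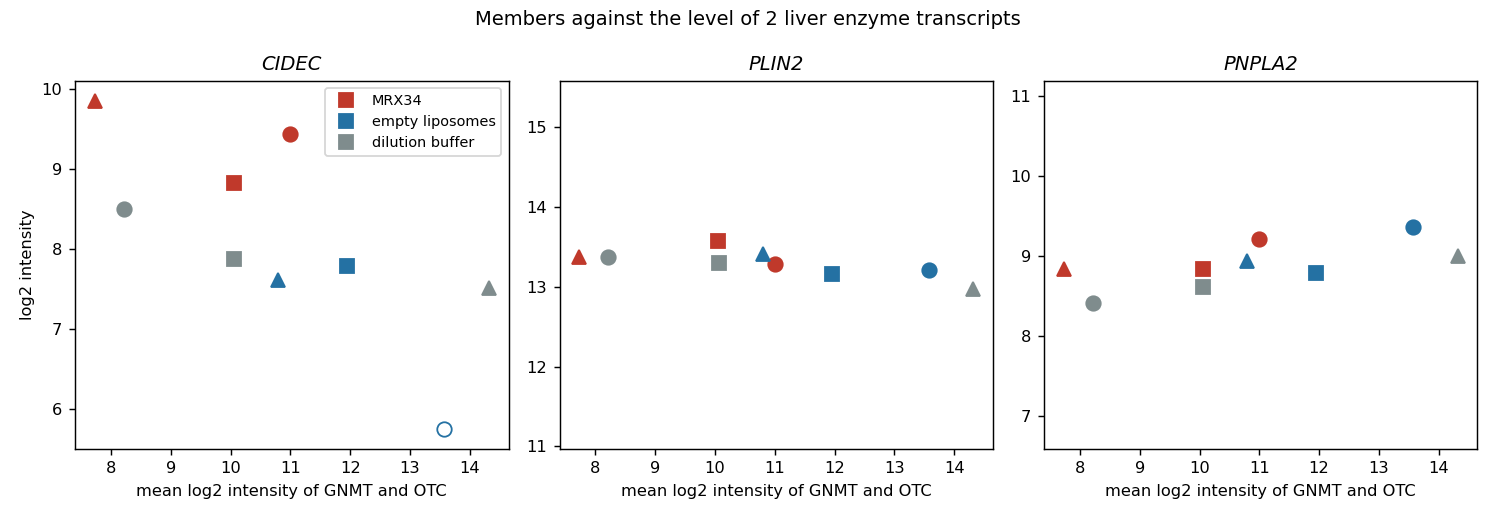
Log2 intensity of CIDEC, PLIN2 and PNPLA2 against the liver level, the mean log2 intensity of GNMT and OTC, with 1 point per array; red is MRX34, blue empty liposomes and grey dilution buffer, and the hollow point was not above background. Over the 9 arrays, Pearson's r with the liver level was -0.725 for CIDEC, -0.723 for PLIN2 and 0.646 for PNPLA2. The liver level averaged 9.59 after MRX34 and 11.49 over both controls, and why it varied with these genes was not tested.

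The remaining genes had these nearest profiles over the 9 arrays, by Pearson's r and with no test. For CIDEA they were ATP8B4 (0.983) and CRY2 (0.961), and for CIDEB they were F10 (0.968) and GALT (0.962). PLIN2 ran closest to CMBL (0.957) and TBC1D8 (0.955), and NOCT (0.925) was among the nearest to PLIN3. For PNPLA2 the nearest were EMX2OS (0.969) and ACTRT1 (0.968). The dim PNPLA3 probe ran closest to GOLGA8IP (0.962) and TREML1 (0.958). That likeness is no result, since PNPLA3 passed the filter only through dilution buffer. GOLGA8IP and TREML1 were also dim, with means of 5.80 and 5.77 log2 units after dilution buffer, and 5.07 and 5.03 after MRX34. These too were picked as the highest among all genes tested and describe the profiles alone. CIDEA and PNPLA2 had r = 0.959 with each other, and -0.793 and -0.771 with array brightness, whose part in these likenesses was not tested.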

How the data were processed

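Per the file headers, the deposited table pairs each array's intensity column with a detection p-value. Its values show that the deposited intensity had been quantile normalized and still held background, while the deposited series table, used as an alternative, holds background-subtracted intensity. Scanner software and the normalization method of the authors are both not given in the sources used here.

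With R 4.3.3 and limma 3.58.1, signals were normexp-corrected from the detection p-values, shifted by an offset of 16, quantile normalized and log2-transformed, which shrinks differences of dim probes. Symbols were updated through RefSeq (GRCh38.p14): of 43906 named probes, 27035 were current, 4626 updated and 12245 unmatched. The brightest probe past the filter stood for each of 15387 genes. The number of arrays limits the precision.

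The means of the 3 groups were fitted on 9 arrays (lmFit, eBayes, two-sided, Benjamini-Hochberg), after a check on simulated data. The 8 genes, the lists and the tests were chosen with earlier results of these data known. Named are the 8 genes, per list and direction the 2 with the smallest p in MRX34 against both controls, the 2 most similar profiles per gene (1 of them, for PLIN3, is not reported here), and GNMT, OTC, AFP and GPC3; all genes of the adipocyte and macrophage marker lists were added after their values were seen. Equal replicate numbers of MRX34 and empty liposomes had correlated deviations (0.441, 0.491 and 0.281), so they may pair those groups, though the labels state no pairing. Unequal numbers also reached 0.341, for empty liposomes 3 with dilution buffer 1. Deviations from a mean of 3 arrays are not independent, so these values do not settle a pairing. With dilution buffer, equal numbers gave -0.0645, 0.144 and -0.150 for MRX34, and -0.189, 0.299 and -0.319 for empty liposomes. Other settings were tried for signal correction, scaling, filtering, choice of probe, the spread estimate, weighting of arrays, a replicate block, and liver or brightness terms, and each array was left out in turn.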

Additional observations from a re-analysis of the deposited data

How the results depend on the processing

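No gene was called in 84 of 94 alternative counts of called genes. In MRX34 against both controls, 2 genes were called without background correction, 3 with the stricter filter and 1 with a trended, robust variance, and 0 to 1 with 1 array left out. Against empty liposomes, 3 were called with the trended, robust variance and 0 to 2 with 1 array left out. Weights estimated per array called 1465 genes against both controls, 267 against empty liposomes, 2828 against dilution buffer and 6 between the controls. They gave dilution buffer 2 a weight of 8.12 and MRX34 3 one of 4.65, so that few arrays carry those counts. Under these weights CIDEC was called in the MRX34 contrasts (2.05, 2.28 and 1.83, limma adjusted p 0.00312, 0.0154 and 0.00361 against both controls, empty liposomes and dilution buffer). PNPLA3 (-0.78, limma adjusted p 0.00594) and CIDEA (0.78, limma adjusted p 0.0235) were called against dilution buffer. The call of PNPLA3 is no result, since it passed the filter only through dilution buffer. Over all alternatives for CIDEC against both controls, the adjusted p ran from 0.00312 to 0.849, and the difference from 0.21 (the other probe) to 2.14.

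With a replicate block, 0 genes were called in each contrast, on 9 arrays or, as added after the data were seen, on the groups compared, and no call of these genes changed.

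Signs turned mostly for values near 0, and the cause was not tested. In MRX34 against empty liposomes, leaving out 1 array gave -0.37 to 0.33 for CIDEA, -0.013 to 0.29 for CIDEB, -0.023 to 0.088 for PLIN3, -0.19 to 0.10 for PNPLA2 and -0.20 to 0.17 for PNPLA3. Without both dilution buffer 3 and empty liposomes 1, that contrast gave 0.33 for CIDEA, -0.013 for CIDEB, -0.023 for PLIN3 and 0.104 for PNPLA2. The liver covariate gave 0.44 for CIDEA, -0.12 for CIDEB and 0.20 for PNPLA2, and the brightness covariate 0.47 for CIDEA and 0.14 for PNPLA2. The series table gave 0.0027 for CIDEA and 0.045 for PNPLA3, and array weights 0.11 for PNPLA3.

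In MRX34 against both controls, leaving out 1 array gave -0.047 to 0.045 for PLIN3 and -0.012 to 0.20 for PNPLA2, array weights 0.0496 and the liver covariate 0.013 for PLIN3, and the weaker probe -0.26 for CIDEA. Against dilution buffer, PLIN3 ran from -0.11 to 0.02 with 1 array left out, and was 0.019 with array weights and 0.018 without both arrays; the weaker CIDEA probe gave -0.045. Between the controls, leaving out 1 array gave -0.011 to 0.29 for CIDEB and -0.072 to 0.13 for PLIN2. Without both arrays PLIN2 was -0.048 and PLIN3 0.041, and the other CIDEC probe gave 0.12. With 3 arrays a group, dim probes (CIDEA, PNPLA3, G0S2) lie too near background for small differences to be seen.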
